A study of Mus musculus with 24 samples.

Results

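Hes1, Hes5, Hey1, Id1, Id2, Id3, Id4, Sox2 and Sox9 are 9 transcription regulators of neural and glial precursors. Their transcript levels were read in cultured mouse oligodendrocytes kept with or without ethanol. Those of the HES, HEY and ID families are known to hold precursors back from differentiating. The genes were taken as a list by symbol, and all 9 were found among the 55359 genes of the deposited count table. All 9 passed the filter on low counts in each comparison. The cells were cortical, from pups of the mouse strain C57BL/6J aged 5 to 7 days, and were picked with magnetic beads for O4, a surface marker of the oligodendrocyte lineage. The sorted cells differentiated for 3 days, mainly under the thyroid hormone T3, before the exposure began. Experiment 1 had 6 wells with 30 mM ethanol and 6 control wells at 0 mM. Experiment 2 had 6 wells with 10 mM ethanol and 6 control wells at 0 mM. Exposure lasted 3 days in both, and the alcohol level of the cultures was measured daily. Control plates stood in another incubator than the ethanol plates, and the effects of ethanol and of the incubator cannot be told apart. Because 30 mM was used in experiment 1 alone and 10 mM in experiment 2 alone, and the labels also give these as batches, dose cannot be told apart from batch. The labels call the wells biological replicates without saying whether they came from separate pups, so the p-values measure the spread between these wells, which may be partly technical.

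HES and HEY proteins are basic helix-loop-helix (bHLH) repressors. They are switched on by Notch signalling through the DNA-binding protein RBPJ and shut off genes that drive differentiation. HES proteins recruit Groucho/TLE corepressors to do so. ID proteins have the helix-loop-helix but no DNA-binding region: they pair with bHLH activators, such as the E proteins and the OLIG factors, and keep them off DNA, and they are classic targets of bone morphogenetic protein (BMP) signalling through SMAD proteins. SOX2 and SOX9 are HMG-box factors of neural stem cells and early glia, and astrocytes keep making both. In the oligodendrocyte lineage the genes of this list are known to be high in precursors and to decline as myelin genes come on.

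The stretches just upstream of the transcription starts are shown first, because Notch, bHLH and SMAD inputs can act there. Sites farther from the starts were not searched. RefSeq upstream sequences of build GRCm38.p6 were at hand for 5 of the 9 genes, Hes5, Id2, Id3, Id4 and Sox2. The submitters' processing notes name GRCm39 for the counts, so these coordinates do not carry over to the counted genes. In the 250 bases before each start, both strands were searched for the RBPJ core TGGGAA, the N box CACNAG that HES proteins bind, the E box CANNTG of bHLH activators and the GC-rich SMAD-binding motif GGCGCC. The 3 windows that held a match are printed 5′ to 3′ on the gene's strand, with every match in capitals. They lie at chr4:154960673-154960922 on the plus strand for Hes5, at chr12:25096093-25096342 on the minus strand for Id2 and at chr13:48260866-48261115 on the plus strand for Id4.
Hes5: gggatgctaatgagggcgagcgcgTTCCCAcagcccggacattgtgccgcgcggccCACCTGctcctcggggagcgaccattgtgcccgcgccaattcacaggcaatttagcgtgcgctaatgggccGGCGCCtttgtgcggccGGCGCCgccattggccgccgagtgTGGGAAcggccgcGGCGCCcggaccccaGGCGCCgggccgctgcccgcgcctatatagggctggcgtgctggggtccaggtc
Id2: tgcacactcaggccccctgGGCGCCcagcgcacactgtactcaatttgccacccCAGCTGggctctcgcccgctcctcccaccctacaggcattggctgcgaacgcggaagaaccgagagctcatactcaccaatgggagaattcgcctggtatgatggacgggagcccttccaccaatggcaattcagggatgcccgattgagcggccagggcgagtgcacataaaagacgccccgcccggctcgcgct
Id4: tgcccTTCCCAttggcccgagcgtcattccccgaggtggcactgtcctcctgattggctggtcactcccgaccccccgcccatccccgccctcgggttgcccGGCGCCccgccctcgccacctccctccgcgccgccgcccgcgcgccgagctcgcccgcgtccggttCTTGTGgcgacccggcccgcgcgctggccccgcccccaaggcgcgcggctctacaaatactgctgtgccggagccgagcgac

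The Hes5 window held 2 RBPJ cores, 226 and 82 bases upstream of the start, with an E box 194 bases upstream. It also held 4 GC-rich SMAD motifs, 123, 106, 69 and 54 bases upstream. The Id2 window held 1 GC-rich SMAD motif 231 bases upstream and 1 E box 196 bases upstream. In the Id4 window lay 1 RBPJ core at 245, 1 GC-rich SMAD motif at 148 and 1 N box at 82 bases upstream. No printed match overlapped another. Of all 32851 RefSeq windows of the same length, 21.6% held the RBPJ core, 36.7% the N box, 66.2% the E box and 9.59% the GC-rich SMAD motif. A match is a stretch of letters and not a measured binding site, and no letters of these motifs stood in the Id3 and Sox2 windows.

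RNA was counted by 3′ tag sequencing, which reads each transcript near its 3′ end. Total counts per well ran from 1184609 to 1817028. Levels are given as CPM, a gene's count scaled to a common total of counts a well, and 3 counts correspond to 1.65 to 2.53 CPM. Since tags are neither divided by length nor matched in capture between genes, levels are compared between wells for 1 gene and not between genes. Use of strand in the counting is not given in the sources used here, so the counts of Hes5, whose exons overlap Gm20421 on the opposite strand, and of Id4, which overlaps A330033J07Rik and Gm49291 on the opposite strand, are uncertain. Sox2 lies inside the long noncoding gene Sox2ot without sharing exons with it. In bulk RNA of this kind, fewer cells of a type and less RNA per cell cannot be told apart.

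Of the 9 genes, Hes1 was the 1 gene that changed at 30 mM ethanol, and none changed at 10 mM. A change is counted here where the p-value of edgeR's quasi-likelihood test, adjusted over all genes tested by the Benjamini-Hochberg method, was under 0.05. At 30 mM this held for 9.67% of the 13235 genes tested, 6.65% in the direction lower, so 1 of 9 members is close to the share of all genes. At 10 mM it held for 0.657% of 13538 genes, beside 0 of 9 members. Far more of the list differed between the control wells of the experiments, 8 of 9 members, where 43.6% of 13479 genes did so. The plot of levels in each well shows all 24 wells for each gene.

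**Figure D1:**
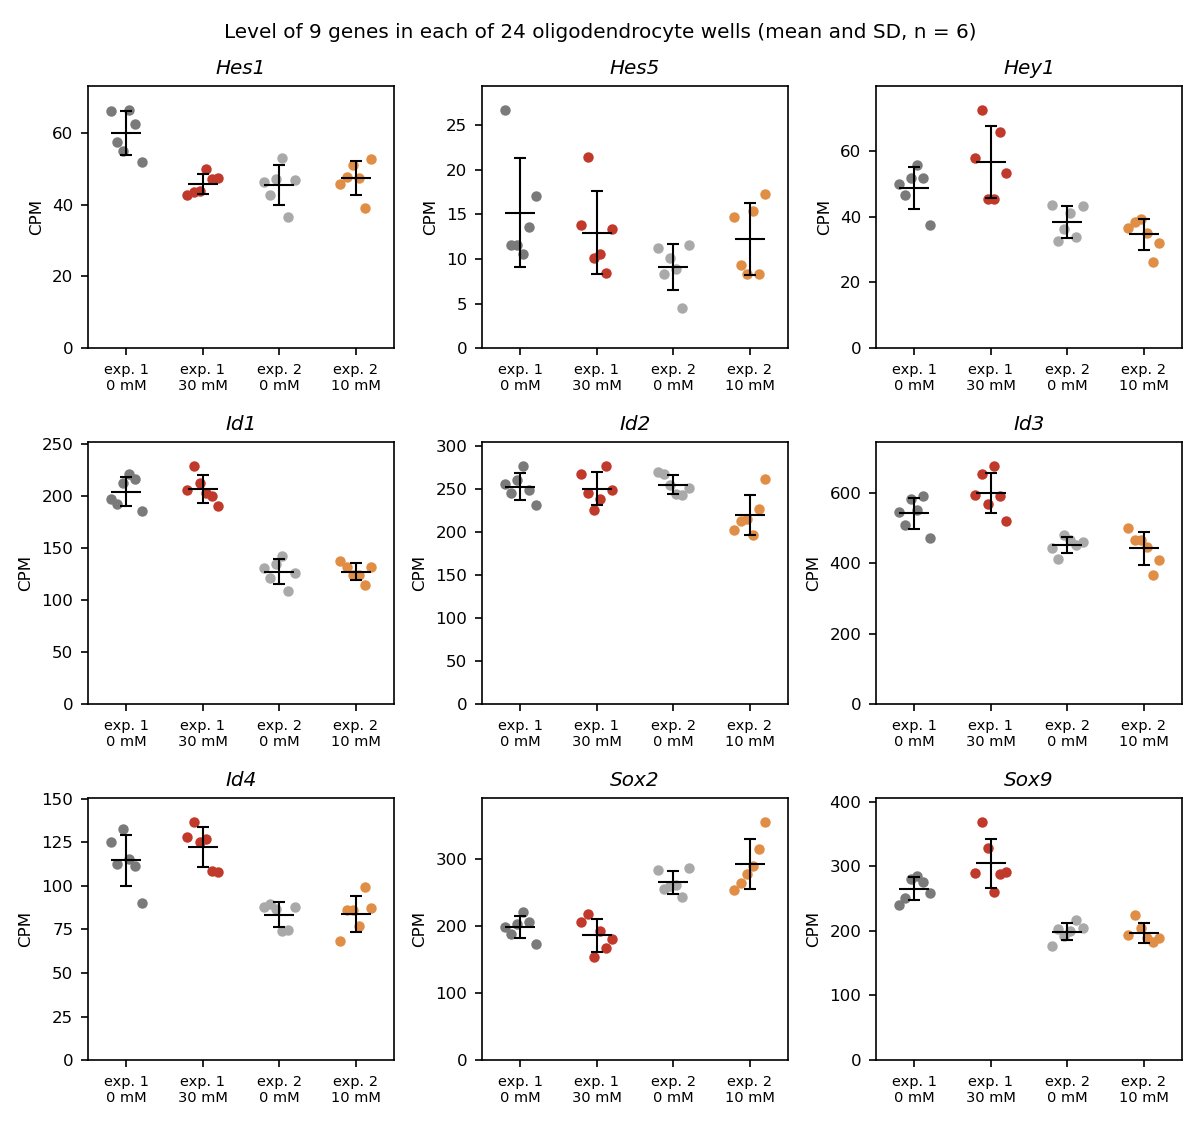
Level of each gene in CPM (vertical axes, each from 0) in the 24 wells, 1 point a well, by experiment and ethanol level, with the mean and SD of 6 wells in black. Hes1 is lower in every 30 mM well than in every control well of experiment 1, and Id1, Id4 and Sox9 stand higher, and Sox2 lower, in experiment 1 than in experiment 2.

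Hes1 encodes a Notch-driven repressor that keeps precursors from differentiating and whose level oscillates in many dividing cells. In the control wells of experiment 1 it ran from 51.9 to 66.4 CPM with a median of 60.0 CPM. In the 30 mM wells it ran from 42.7 to 50.0 CPM with a median of 45.4 CPM. The highest 30 mM well thus lay below the lowest control well, a separation seen in 4.17% of all genes tested and, in the direction lower, in 3.09%. Hes1 fell by 23.9% at 30 mM, a log2 fold change of -0.39 (SE 0.104, 95% interval -0.60 to -0.18, adjusted p = 0.00986, edgeR). By p-value it ranked 636 among the 13235 genes. In experiment 2 the control wells ran from 36.6 to 53.1 CPM (median 46.5 CPM) and the 10 mM wells from 39.1 to 52.6 CPM (median 47.6 CPM). These ranges lie almost on top of each other, and the log2 fold change at 10 mM was 0.05 (95% interval -0.16 to 0.27, adjusted p = 0.918, edgeR). All 30 mM wells lay within the range of the control wells of experiment 2, and the group with the highest mean of the 4 was the control group of experiment 1.

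Whether Hes1 responded differently at the 2 doses was tested directly. The 30 mM change minus the 10 mM change was -0.46 on the log2 scale (SE 0.149, 95% interval -0.76 to -0.16) and missed the threshold (adjusted p = 0.0695, edgeR). Of 14655 genes, 3.28% passed this test, and 0 of the 9 members did. Leaving out 1 well brought Hes1 past it in 3 of 24 cases: without control replicate 6 of experiment 1 (-0.51, adjusted p = 0.0346), without 10 mM replicate 5 (-0.52, adjusted p = 0.0395) and without control replicate 4 of experiment 2 (-0.52, adjusted p = 0.0452, edgeR). In experiment 1 the summed markers of mural cells or fibroblasts moved the same way as Hes1, from 1368 ± 165 CPM in control wells to 579 ± 47.8 CPM at 30 mM (SD, n = 6). Of the 11 genes in that sum 8 fell, where 6.65% of all genes did, but Pdgfrb, Rgs5 and Lum did not pass (log2 fold changes -0.08, 0.15 and -0.13). Across wells within groups, Hes1 had r = 0.54 with that sum in experiment 1 (12 wells) and -0.55 in experiment 2 (12 wells). It was not alone in experiment 1, where Id4 had 0.61, Id3 0.50 and Hey1 0.41 with the mural or fibroblast sum. The remaining members ran from -0.04 (Hes5) to 0.37 (Id1) there. The part of these cells in the Hes1 difference was not tested.

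Hes5, the other Notch-driven HES repressor of neural precursors, was the member with the fewest reads, 6 to 38 counts a well. It ran from 10.6 to 26.8 CPM (median 12.6 CPM) in the control wells of experiment 1 and from 8.43 to 21.5 CPM (median 12.0 CPM) at 30 mM. In experiment 2 the control wells ran from 4.49 to 11.5 CPM (median 9.50 CPM) and the 10 mM wells from 8.26 to 17.3 CPM (median 12.1 CPM). Both pairs of ranges overlapped. The log2 fold changes of -0.19 at 30 mM (95% interval -0.68 to 0.30, adjusted p = 0.691) and 0.43 at 10 mM (95% interval -0.03 to 0.89, adjusted p = 0.544, edgeR) had the widest intervals of the list. A difference of the size seen for Hes1 was therefore not detectable for Hes5 at this depth. Without control replicate 1, the well at the top of its range, the 30 mM value turned to 0.05.

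Hey1 is a bHLH repressor related to HES proteins that Notch and BMP signals can both induce. Its control wells in experiment 1 ran from 37.3 to 55.8 CPM (median 50.8 CPM) and its 30 mM wells from 45.3 to 72.5 CPM (median 55.5 CPM). In experiment 2 it ran from 32.7 to 43.6 CPM (median 38.6 CPM) without ethanol and from 26.3 to 39.3 CPM (median 35.7 CPM) at 10 mM. Neither pair was separated. The log2 fold change of Hey1 was 0.21 at 30 mM (95% interval -0.02 to 0.45, adjusted p = 0.263) and -0.17 at 10 mM (adjusted p = 0.694, edgeR), opposite in sign to Hes1 at both doses.

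**Figure D2:**
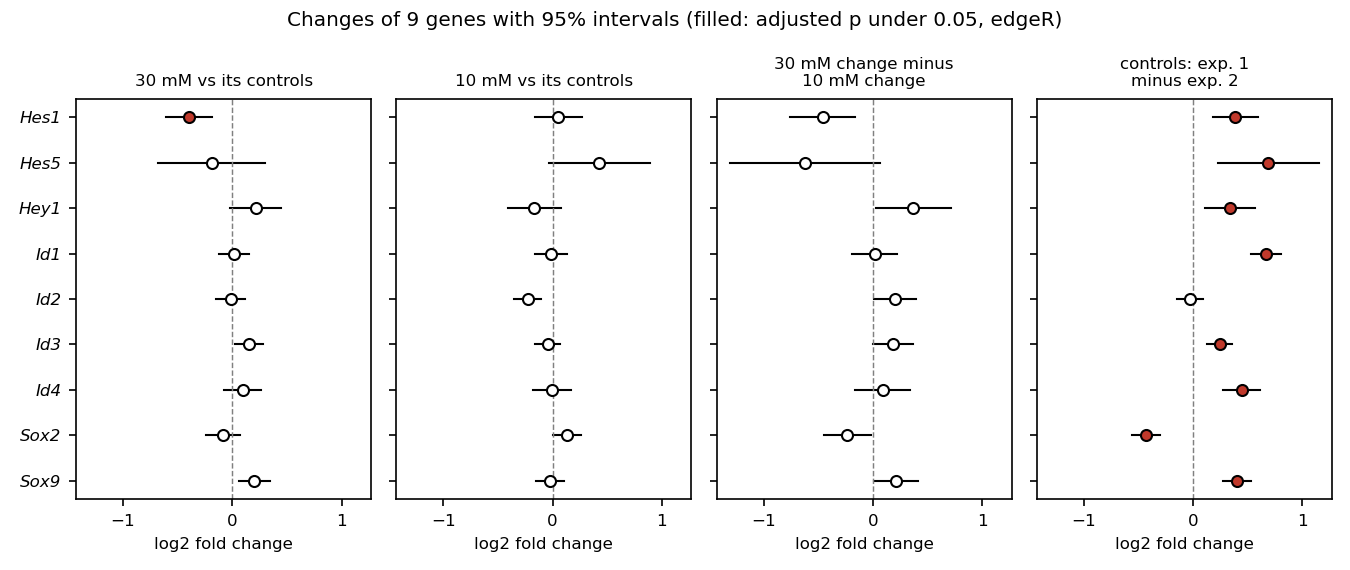
Log2 fold change (horizontal axes) of the 9 genes in 4 comparisons, with 95% intervals as lines. Filled points passed an adjusted p of 0.05 (edgeR): Hes1 at 30 mM, none at 10 mM, none for the difference between the doses, and 8 genes between the control groups.

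The 4 ID genes all missed the threshold at both doses. Id1, a prompt BMP target, ran from 186 to 221 CPM (median 205 CPM) in the control wells of experiment 1 and from 190 to 229 CPM (median 204 CPM) at 30 mM. In experiment 2 it ran from 108 to 142 CPM without ethanol and from 114 to 137 CPM at 10 mM, with a median of 128 CPM in both. Within each experiment the Id1 wells with and without ethanol covered nearly the same range. Its log2 fold changes were 0.02 at 30 mM (95% interval -0.12 to 0.16, adjusted p = 0.906) and -0.01 at 10 mM (adjusted p = 0.980, edgeR), so the interval at 30 mM excludes a drop as large as the -0.39 measured for Hes1.

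Id2 binds E proteins and OLIG factors and is among the ID genes best known for slowing oligodendrocyte maturation. It ran from 231 to 277 CPM (median 252 CPM) in the control wells of experiment 1 and from 226 to 277 CPM (median 248 CPM) at 30 mM, with a log2 fold change of -0.01 (95% interval -0.15 to 0.12, adjusted p = 0.935, edgeR). In experiment 2 it ran from 244 to 270 CPM (median 253 CPM) in the control wells and from 197 to 262 CPM (median 214 CPM) at 10 mM. Of the 6 wells at 10 mM, 5 lay below every control well, and replicate 6, at 262 CPM, lay among the controls. The log2 fold change at 10 mM was -0.23 (SE 0.0628, 95% interval -0.35 to -0.10) and missed the threshold (adjusted p = 0.0632, edgeR), at rank 106 of 13538 genes by p-value. Without replicate 6 it was -0.28 and passed (adjusted p = 0.00648), and with scaling by total counts alone it was -0.24 and passed (adjusted p = 0.0339, edgeR). The difference between the doses was 0.20 for Id2 (adjusted p = 0.252, edgeR), which does not separate them.

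Id3, a BMP target that astrocytes also express, ran from 472 to 589 CPM (median 547 CPM) in the control wells of experiment 1 and from 518 to 676 CPM (median 592 CPM) at 30 mM. Its log2 fold change of 0.15 had an interval from 0.02 to 0.28, and the adjusted p was 0.135 (edgeR). In experiment 2 it ran from 412 to 479 CPM in the control wells and from 365 to 500 CPM at 10 mM, with a median of 455 CPM in both groups (log2 fold change -0.04, adjusted p = 0.868, edgeR). Id4, the ID gene that is known to act on oligodendrocyte precursors downstream of BMP, ran from 90.0 to 133 CPM (median 114 CPM) in the control wells of experiment 1 and from 108 to 137 CPM (median 126 CPM) at 30 mM. Its wells in experiment 2 ran from 74.0 to 89.6 CPM (median 87.4 CPM) without ethanol and from 68.3 to 99.2 CPM (median 86.1 CPM) at 10 mM. The Id4 ranges overlapped in both experiments, and its log2 fold changes were 0.10 (95% interval -0.08 to 0.27, adjusted p = 0.525) and -0.01 (adjusted p = 0.990, edgeR).

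Sox2 keeps neural and glial precursors dividing. In experiment 1 it ran from 173 to 220 CPM (median 201 CPM) in the control wells and from 153 to 218 CPM (median 186 CPM) at 30 mM, a log2 fold change of -0.09 (95% interval -0.24 to 0.07, adjusted p = 0.525, edgeR). In experiment 2 it ran from 243 to 286 CPM (median 260 CPM) in the control wells and from 254 to 355 CPM (median 283 CPM) at 10 mM, a log2 fold change of 0.14 (95% interval 0.01 to 0.26, adjusted p = 0.464, edgeR). The ranges with and without ethanol overlapped at both doses, while every well of experiment 2 lay above every well of experiment 1. Of all members Sox2 followed sequencing depth most closely: within groups its level had r = 0.74 with the log2 total count (rho 0.76, 24 wells), 0.89 in experiment 1 and 0.54 in experiment 2. The part of depth in the Sox2 values was not tested.

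Sox9 drives glial fate and stays on in astrocytes while the oligodendrocyte lineage loses it. Its control wells in experiment 1 ran from 240 to 284 CPM (median 268 CPM) and its 30 mM wells from 260 to 369 CPM (median 291 CPM). The ranges overlapped, with 30 mM replicate 2 the highest of all 24 wells. The log2 fold change was 0.20 (95% interval 0.06 to 0.35) and missed the threshold (adjusted p = 0.0654, edgeR). Sox9 passed without 30 mM replicate 1 (0.22, adjusted p = 0.0363) or replicate 4 (0.24, adjusted p = 0.0342), and with all wells under scaling by total counts alone (0.21, adjusted p = 0.0370) or in a fit of all 24 wells together (0.20, adjusted p = 0.0454, edgeR). In experiment 2 Sox9 ran from 177 to 217 CPM (median 201 CPM) without ethanol and from 183 to 224 CPM (median 191 CPM) at 10 mM, with a log2 fold change of -0.02 (adjusted p = 0.948, edgeR).

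Beside Sox9, the summed markers of astrocytes were higher at 30 mM, 6001 ± 515 CPM against 4700 ± 359 CPM in the control wells (SD, n = 6). The 30 mM wells ran from 5506 to 7000 CPM and the control wells from 3999 to 4975 CPM, without overlap. Of the 11 astrocyte markers tested, 6 rose and none fell, where 400 of all 13235 genes tested rose and 880 fell. Between wells within groups, Sox9 had r = 0.56 with that sum in experiment 1 (12 wells) and r = 0.08 in experiment 2 (12 wells). The tie was not particular to Sox9. In experiment 1 it was closer for Id1 (0.77), Id4 (0.72), Hey1 (0.71), Id3 (0.66) and Sox2 (0.60). It was looser for Hes1 (0.37), Id2 (0.24) and Hes5 (0.17). The well highest in Sox9, 30 mM replicate 2, was also the highest in astrocyte markers. The part of astrocytes in the Sox9 values was not tested.

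Across the list, the changes had no common direction. At 30 mM 5 members had a positive and 4 a negative log2 fold change, with a median of 0.02 beside 0.02 over all genes tested. At 10 mM 3 were positive and 6 negative, with a median of -0.01 beside -0.00 over all genes. For the difference between the doses 6 were positive and 3 negative, with a median of 0.09 beside 0.02 over all genes. No member's wells separated at 10 mM, where 0.805% of all genes did so. At an unadjusted p under 0.05 there were 3 of 9 members at 30 mM, where 3109 of all genes (23.5%) were, and 2 of 9 at 10 mM (Id2 and Sox2), where 1366 (10.1%) were. For the difference between the doses there were 5 of 9 (Hes1, Hey1, Id2, Sox2 and Sox9), where 2522 of all genes (17.2%) were, and none of the 5 passed after adjustment over all genes.

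The experiments differed in these genes more than the ethanol groups did. In the control wells 7 of the 9 members were higher in experiment 1, where 21.3% of all genes were, and 1 was lower, where 22.3% were. Id1 had the smallest p-value, at 204 ± 14.3 CPM against 127 ± 11.6 CPM (SD, n = 6), a log2 difference of 0.67 (95% interval 0.53 to 0.81, adjusted p = 2.82e-13, edgeR). Hes5 differed by 0.69 (adjusted p = 0.0123), Id4 by 0.44 (adjusted p = 8.99e-06), Sox9 by 0.40 (adjusted p = 1.81e-07) and Hes1 by 0.39 (adjusted p = 0.00173, edgeR). Hey1 followed with 0.34 (adjusted p = 0.0137) and Id3 with 0.24 (adjusted p = 0.000305, edgeR). Sox2 went the other way, at 198 ± 16.3 CPM against 265 ± 16.8 CPM, a log2 difference of -0.43 (adjusted p = 2.79e-08, edgeR). Id2 was level, at 253 ± 15.5 CPM against 255 ± 11.5 CPM (log2 difference -0.03, adjusted p = 0.734, edgeR).

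The control wells of the experiments did not overlap for 4 members, Id1, Id4 and Sox9 in the direction higher and Sox2 in the direction lower. Among all genes, 18.9% were separated in this way, 10.6% higher and 8.27% lower. The median difference of the members was 0.39 beside -0.01 over all genes. Hes5 lost its call without control replicate 1 of experiment 1 (0.46, adjusted p = 0.118) or control replicate 5 of experiment 2 (0.55, adjusted p = 0.0519, edgeR). Marker sums of other cell types differed between the same wells: microglia markers were at 253 ± 53.5 CPM in experiment 1 and 2137 ± 127 CPM in experiment 2. Mural or fibroblast markers summed to 1368 ± 165 CPM and 746 ± 75.0 CPM (SD, n = 6). Of these 11 mural or fibroblast markers, though, 4 were higher in experiment 1 and 4 lower. Astrocyte markers summed to 4700 ± 359 CPM and 4664 ± 114 CPM, but the like sums do not hold for the single markers. Of the 11 astrocyte markers tested, 8 were higher in experiment 1 and 2 lower, where 21.3% and 22.3% of all genes were. The part of these cells and of the batch was not tested.

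Placed in order of mean level, most neighbouring groups overlapped. For Id1 the step from the control wells of experiment 1 down to the 10 mM wells separated all wells, for Sox2 the step from the control wells of experiment 2 down to those of experiment 1, and for Sox9 the step from the control wells of experiment 1 down to those of experiment 2. Hes1 ran from the control wells of experiment 1 (59.9 ± 6.07 CPM) through the 10 mM wells (47.3 ± 4.74 CPM) and the 30 mM wells (45.8 ± 2.87 CPM) to the control wells of experiment 2 (45.4 ± 5.47 CPM), with overlap at each step. For Hey1, Id3 and Sox9 the 30 mM wells came highest and the 10 mM wells lowest. For Id2 the 10 mM wells came lowest, at 220 ± 23.2 CPM, below 3 groups with means between 251 and 255 CPM (SD, n = 6).

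Upstream of Hes1, Hes5 and Hey1 stand the Notch ligands and receptors, of which 8 of 11 were tested at 30 mM. Of these 1 rose, where 400 of all 13235 genes did. Dlk1, an atypical delta-like ligand that can dampen Notch, rose from 19.7 ± 4.33 to 32.3 ± 2.35 CPM (log2 fold change 0.72, SE 0.154, adjusted p = 0.00119, edgeR), and no other did. Its difference between the doses was 0.89 (adjusted p = 0.0287, edgeR), and lost its call without control replicate 3 or 5 of either experiment or 10 mM replicate 4 or 6 (adjusted p 0.0574 to 0.0703). The receptor gene Notch1 had log2 fold changes of -0.01 at both doses. Of the genes that process Notch or work with it in the nucleus, 16 of 18 were tested, and 1 fell, where 6.65% of all genes did. Ncstn, a subunit of the γ-secretase that frees the Notch intracellular domain, went from 96.5 ± 10.2 to 78.0 ± 11.7 CPM (log2 fold change -0.30, adjusted p = 0.0365, edgeR). It lost its call without any 1 of 30 mM replicates 3 to 6 or control replicates 3 and 4 (adjusted p 0.0666 to 0.137). Rbpj, the DNA-binding partner of that domain, had log2 fold changes of -0.03 at 30 mM and -0.10 at 10 mM, passed at neither dose and is named after its values were seen.

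Other Notch targets and HES relatives gave no call at either dose among 4 of 10 tested. Hes6, which opposes Hes1, was at 87.1 CPM at 30 mM against 90.6 CPM in control wells. The TLE corepressors gave none among 4 of 5 tested, and Tle5 had no row under that symbol. Tle1 had the largest log2 fold change of these 4 at 30 mM, 0.33 (58.5 against 46.9 CPM, adjusted p = 0.0725, edgeR), and Tle3 had -0.21. At 10 mM no gene of these 4 Notch lists changed.

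**Figure D3:**
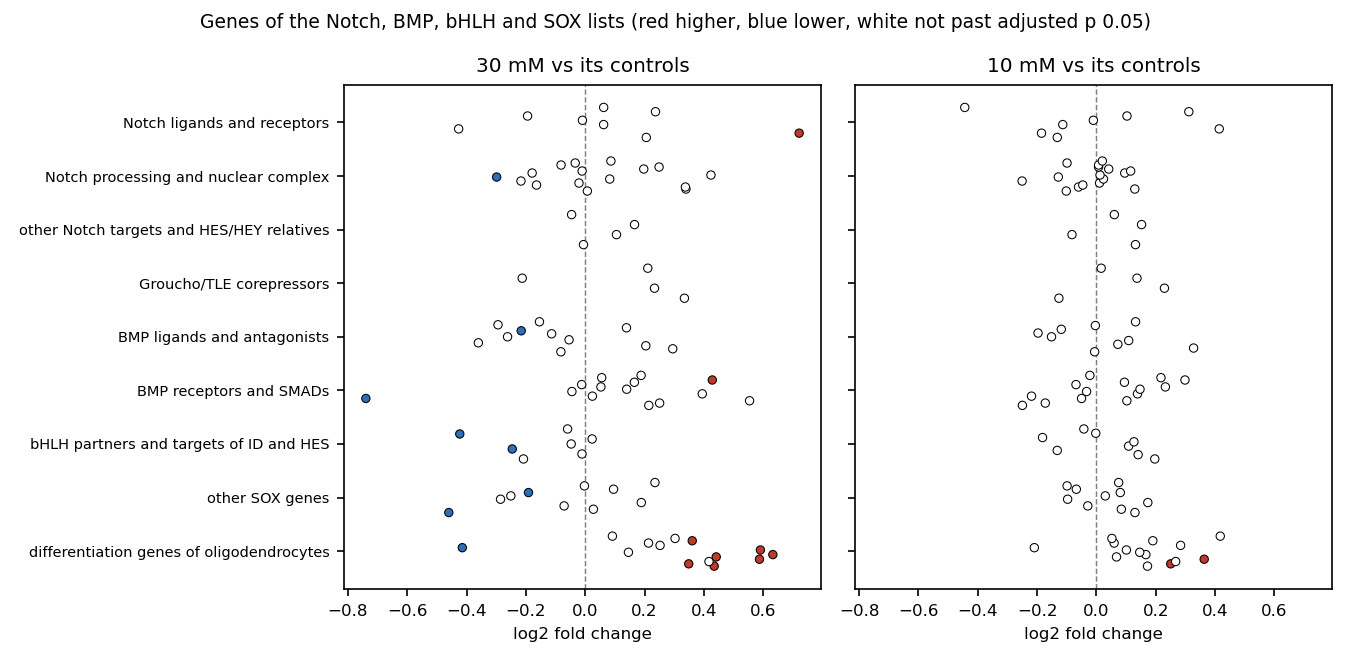
Log2 fold change (horizontal axes) of every tested gene of 9 lists around the members, 1 point a gene, at 30 mM (left) and 10 mM (right) against the control wells of the same experiment. Red and blue points passed an adjusted p of 0.05 (edgeR); at 30 mM the oligodendrocyte differentiation genes hold 8 of them, more than any other of the 9 lists, and at 10 mM the only coloured points are Mag and Cnp.

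The BMP pathway, which feeds the ID genes, held 3 called genes at 30 mM among the 11 and 14 tested of its 2 lists, a share near the 9.67% of all genes. Among 11 of 18 ligands and antagonists tested at 30 mM, 1 fell, the secreted antagonist Fstl1, from 315 ± 41.5 to 272 ± 19.0 CPM (log2 fold change -0.22, adjusted p = 0.0485, edgeR), and it lost its call in 10 of 12 fits with 1 well left out, all but those without 30 mM replicate 2 or control replicate 6 (adjusted p up to 0.183). Among 14 of 17 receptors and SMADs tested, Bambi, a decoy receptor for BMP and its relatives, fell from 19.8 ± 5.38 to 12.0 ± 3.41 CPM (log2 fold change -0.74, adjusted p = 0.0199, edgeR), and lost its call without 30 mM replicate 5 (adjusted p = 0.0618) or control replicate 4 (adjusted p = 0.110). Smad7, an inhibitory SMAD, rose from 31.6 ± 4.72 to 42.4 ± 8.19 CPM (0.43, adjusted p = 0.0425, edgeR), and lost its call in 8 of 12 such fits, all but those without 30 mM replicate 1 or 2 or control replicate 5 or 6 (adjusted p up to 0.116). The BMP receptors Bmpr1a and Bmpr2 and the signalling SMAD Smad5 had log2 fold changes of 0.02, -0.04 and -0.01 and did not pass. No BMP gene passed at 10 mM, and none in the difference between the doses. Between the control groups 6 of 11 tested ligands and antagonists were higher in experiment 1 and 1 was lower, where 21.3% and 22.3% of all genes were. The ligand Bmp6, named after its values were seen, was at 24.8 ± 3.34 CPM against 4.81 ± 2.82 CPM (log2 difference 2.35, adjusted p = 1.17e-14, edgeR). The antagonist Nog, also named after its values were seen, was likewise higher in experiment 1, at 12.6 ± 1.45 CPM against 4.88 ± 1.05 CPM.

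The bHLH partners that ID proteins hold back were lower at 30 mM in 2 of 7 tested genes and higher in none, where 6.65% of all genes were lower. Tcf3, which encodes the E proteins E12 and E47, fell from 80.8 ± 7.91 to 60.3 ± 8.10 CPM (log2 fold change -0.42, SE 0.0982, adjusted p = 0.00299, edgeR), a size like that of Hes1. Olig1, which oligodendrocytes need for maturation, fell from 265 ± 26.1 to 223 ± 12.7 CPM (-0.25, adjusted p = 0.0159, edgeR), and lost its call without 30 mM replicate 3 or 6 or control replicate 1 or 4 (adjusted p 0.0514 to 0.0602). Its change differed between the doses by -0.37 (adjusted p = 0.0256, edgeR), and this call was lost without control replicate 4 of experiment 1, control replicate 5 of experiment 2 or 10 mM replicate 6 (adjusted p 0.0502 to 0.0521). The other E protein genes Tcf4 and Tcf12 had log2 fold changes of -0.06 and 0.02. At 10 mM none of 8 tested partners passed, and Tcf3 was at 81.6 CPM against 80.7 CPM.

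Among the other SOX genes 10 of 14 were tested, and 2 fell at 30 mM, where 6.65% of all genes did. At 30 mM Sox1, which shares the SOXB1 group with Sox2, fell from 39.2 ± 7.61 to 28.6 ± 4.68 CPM (log2 fold change -0.46, adjusted p = 0.0298, edgeR), and lost its call without any 1 of 30 mM replicates 1, 5 and 6 or control replicates 1, 3 and 5 (adjusted p 0.0574 to 0.0937). Sox4 fell from 914 ± 78.7 to 799 ± 66.1 CPM (-0.19, adjusted p = 0.0424, edgeR), and lost its call in 8 of 12 fits with 1 well left out, all but those without 30 mM replicate 1 or 2 or control replicate 2 or 5 (adjusted p up to 0.148). Its change differed between the doses by -0.28 (adjusted p = 0.0443, edgeR) and lost that call in 15 of 24 fits (adjusted p up to 0.0970). Sox10, the lineage factor of oligodendrocytes, had a log2 fold change of 0.03. At 10 mM no SOX gene passed.

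Differentiation genes, which HES and ID proteins are known to restrain, gave the largest count: 7 of 14 rose at 30 mM and 1 fell, where 9.67% of all genes changed, and 2 rose at 10 mM, where 0.657% did. The 1 that fell, named after its value was seen, was Nkx2-2, a factor of precursors and young oligodendrocytes (-0.41, adjusted p = 0.0434, edgeR; lost in 10 of 12 fits with 1 well left out). At 30 mM Mobp rose by 0.63 on the log2 scale (adjusted p = 1.25e-05), Mag by 0.59 (adjusted p = 2.63e-05) and Mbp by 0.44 (adjusted p = 0.000156, edgeR). At 10 mM Mag rose by 0.36 (adjusted p = 8.45e-05) and Cnp by 0.25 (adjusted p = 0.0038, edgeR). Mobp, Mag, Mbp and Cnp make myelin proteins and enzymes. All of them rose at 30 mM, where Hes1 fell. At 10 mM, where no member passed, Mag and Cnp rose and Mobp and Mbp did not pass. The 30 mM replicate 1 stood apart in such genes: its summed oligodendrocyte markers were at 16387 CPM, and the other 5 wells ran from 9605 to 10175 CPM. Without it Mobp rose by 0.43 and Mbp by 0.29, and the Hes1 call was kept. The differences between the doses of Mobp (0.46, adjusted p = 0.0201) and Mbp (0.36, adjusted p = 0.0363) missed the threshold without that well (0.23, adjusted p = 0.0981, and 0.19, adjusted p = 0.159, edgeR). Mobp also missed it without control replicate 3 of experiment 1 (adjusted p = 0.0552) or control replicate 2 of experiment 2 (adjusted p = 0.0672), and Mbp in 17 of 24 fits with 1 well left out.

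**Figure D4:**
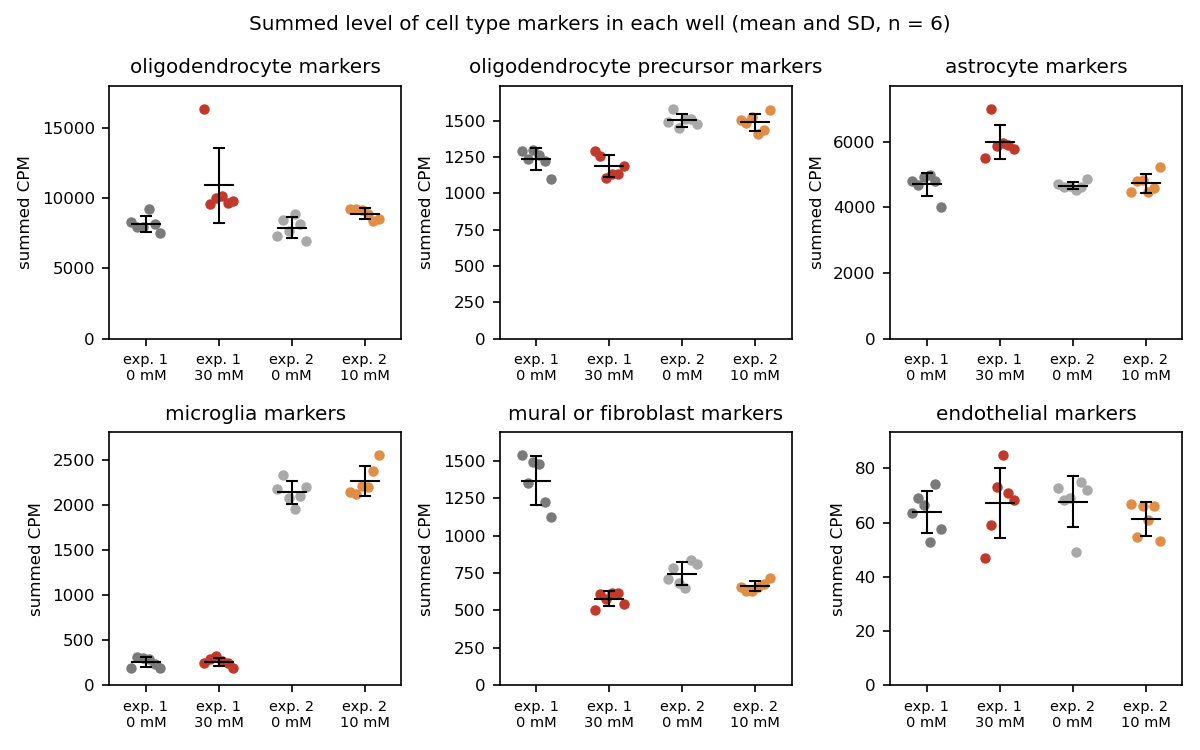
Summed CPM of fixed marker lists for 6 cell types (vertical axes, each from 0) in the 24 wells, 1 point a well, with the mean and SD of 6 wells in black. At 30 mM the astrocyte sums are higher and the mural or fibroblast sums lower than in the control wells of experiment 1, and the microglia sums of experiment 2 lie far above those of experiment 1.

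Since precursors, astrocytes, mural cells and microglia can all express genes of this list, the markers of the cells in the wells are set beside it. Oligodendrocyte markers, 10 genes, summed to 8197, 10952, 7911 and 8913 CPM on average in the control wells of experiment 1, the 30 mM wells, the control wells of experiment 2 and the 10 mM wells, none of them at 0, so the sorted lineage was present in every group. Precursor markers, 7 genes, summed to 1235, 1185, 1502 and 1487 CPM in the same order, and none of the 7 passed at either dose. Between the control groups 5 of the 7 were lower in experiment 1, where 22.3% of all genes were. Their sums did not overlap, at 1098 to 1300 CPM in the control wells of experiment 1 and 1448 to 1580 CPM in those of experiment 2. Mural or fibroblast markers fell at 30 mM in 8 of 11 tested genes, where 6.65% of all genes fell. At 10 mM they fell in 2 of 10, where 36 of all 13538 genes fell. Endothelial markers were low, 47.1 to 84.8 CPM in sum over all wells, with Cldn5 at 0 in all wells of 3 groups. Neuron markers summed to between 126 and 172 CPM on average.

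Within groups, well-to-well differences tied some members together. These are correlations of the log2 CPM of 24 wells after removal of the group means, given as a description. Id1 and Id3 had r = 0.61 (rho 0.69), with 0.72 in experiment 1 and 0.53 in experiment 2. Hey1 went with Id1 (r = 0.58, rho 0.55) and with Id3 (r = 0.56, rho 0.47), each positive in both experiments. Hes1 and Id1 had r = 0.57 (rho 0.42), which came from experiment 2 (0.83) more than from experiment 1 (0.15). A separate trio was Id2, Id4 and Sox2: Sox2 had r = 0.62 with Id2 (rho 0.52) and 0.57 with Id4 (rho 0.60), and Id2 and Id4 had 0.41 (rho 0.47). Sox2 and Id4 shared ties to the total count (r = 0.74 and 0.46) and to the astrocyte sum (r = 0.59 and 0.61), and Id3 with Id4 turned from 0.71 in experiment 1 to -0.70 in experiment 2. Over all 24 wells Sox9 was tied to no other member above r = 0.36, but the experiments differed. With Id1 it had 0.75 in experiment 1 and -0.17 in experiment 2, with Hey1 0.48 and 0.16, and with Sox2 0.27 and -0.58.

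**Figure D5:**
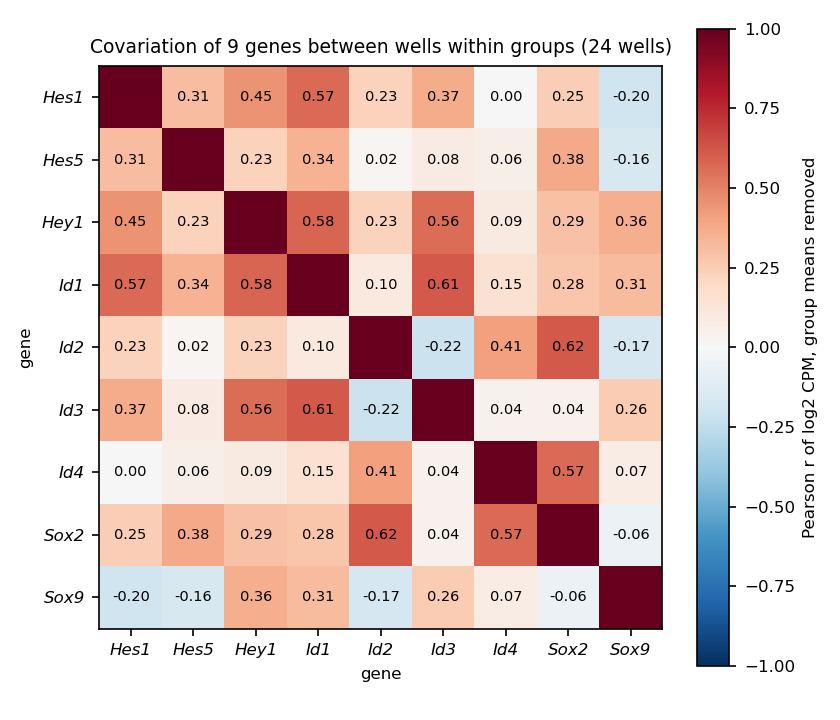
Pearson r between the log2 CPM of each pair of genes (both axes) over 24 wells after group means were removed, on a colour scale from -1 to 1. The block of Hey1, Id1 and Id3 has r of 0.56 to 0.61, and Sox2 has 0.62 with Id2 and 0.57 with Id4.

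Among 6524 well-expressed other genes, those that most resembled each member over the same 24 wells were found by the same measure. Nearest to Hes1 were Zbtb18 (r = 0.66), Pfkm (0.65) and Golph3 (0.64). Hes5 was nearest to Golga4 (0.76), Phtf1 (0.73) and Anapc7 (0.69), and Hey1 to Psmb5 (0.77), Dazap2 (0.75) and Kif3b (0.74). With so many genes compared over 24 wells that share depth and batch, an r of this height is the top of a long list. The ID genes were nearest to Acat1 (Id1, 0.84), Rplp1 (Id2, 0.77), Rps25 (Id3, 0.86) and Speg (Id4, 0.80), and Sh3bgrl was among the 3 nearest for both Id1 (0.78) and Id3 (0.83). Sox2 was nearest to Ptn (0.87), Ttc3 (0.83) and Ola1 (0.80), and Sox9 to Itgb8 (0.77), Cd109 (0.75) and Slc16a1 (0.73).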

How the data were processed

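Per the labels, RNA of 24 wells was read by 3′ tag sequencing with single-end reads of 100 bases. The authors deposited 1 table of raw counts per gene, named by Ensembl identifiers. The submitters' processing notes name cutadapt 1.18, STAR and GRCm39; the counter, annotation release, use of strand and removal of duplicates are not given in the sources used here. Symbols were matched for 52083 of 55359 identifiers (94.1%).

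Each comparison was fitted on its own 12 wells (24 for the difference between the doses) with edgeR 4.0.16 in R 4.3.3: filterByExpr, TMM scaling, the quasi-likelihood test, and Benjamini-Hochberg adjustment over all genes tested, with no covariates. CPM use TMM factors of all 24 wells, and correlations use log2 CPM with a prior count of 2. In 60 pairs of wells of 1 group, counts differed beyond sampling noise (largest chi-square p 3.4e-11), so no well was a duplicate. All 24 columns matched a sample. The scripts were tested on simulated data.

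The members and the gene lists were chosen with earlier results of these data known. All members are named, and of each related list up to 3 called genes of smallest p in each ethanol comparison, those called in more than 1, and up to 3 of highest level, plus the 3 genes of mean log2 CPM of at least 5 most like each member. Alternatives were DESeq2 1.42.0, limma 3.58.1 voom, RLE or total-count scaling, no low-count filter, a filter at 5 CPM in 6 wells, a joint fit of 24 wells, a replicate block and leaving out each well. Intervals cover the spread between wells; reads had no stated molecular identifiers.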

Additional observations from a re-analysis of the deposited data

How the results depend on the processing

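Hes1 at 30 mM kept its direction and call in all 12 fits without 1 well (-0.42 to -0.36, adjusted p 0.00667 to 0.0361, edgeR) and in 8 other settings (-0.42 to -0.39, adjusted p 0.00556 to 0.0303). The number of members changed at 30 mM was 2 with total-count scaling and 2 in the joint fit (Sox9 beside Hes1), and 1 to 2 with 1 well left out. At 10 mM it was 1 with total-count scaling (Id2) and 0 to 1 with 1 well left out. Members whose change differed between the doses numbered 0 to 1 with 1 well left out, and members differing between the controls 7 to 8. All genes changed at 10 mM numbered 89, but 21 in the joint fit and 37 to 95 with 1 well left out (lowest without control replicate 5 of experiment 2). Genes that differed between the doses numbered 481 (129 higher, 352 lower; 69 and 382 with DESeq2), and 329 to 759 with 1 well left out, highest without 30 mM replicate 1 (759) or replicate 2 (723). The cause of these shifts was not tested.

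Values near 0 turned sign. With no low-count filter these were Id1 at 30 mM (-0.0116), at 10 mM (0.0128) and between the doses (-0.0384), Id4 (0.0167) and Sox9 (0.00103) at 10 mM and Id2 between the controls (0.0228). In the joint fit it was Id4 at 10 mM (0.00351). With 1 well left out, the ranges at 30 mM were -0.0152 to 0.0426 for Id1, -0.0374 to 0.0188 for Id2 and -0.40 to 0.0466 for Hes5. At 10 mM they were -0.0488 to 0.0245 for Id1, -0.0802 to 0.00533 for Id3, -0.0560 to 0.0430 for Id4 and -0.0566 to 0.00705 for Sox9. Between the doses Id1 ran from -0.0378 to 0.0432, and Id2 between the controls from -0.0452 to 0.000778. Scaling moved the median of all genes by under 0.1.

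Wells share replicate numbers 1 to 6, but same-numbered wells did not deviate together (r -0.13 to 0.18 in experiment 1 and -0.07 to 0.06 in experiment 2), and 1 of 12 was best matched by its own number, so the numbers do not pair them. With the replicate block 1208, 68 and 461 genes passed at 30 mM, at 10 mM and for the difference, with 1, 0 and 0 members. The block ended no other call but that of Sox4 at 30 mM (adjusted p = 0.0551) and between the doses (adjusted p = 0.0610). Alternatives for genes of the related lists were added after the calls were seen: at 30 mM the calls of Fstl1 (5 of 8 settings), Sox4 (4), Smad7 (3), Nkx2-2 (3), Ncstn (1) and Sox1 (1) were lost, between the doses DESeq2 ended those of Mobp and Mbp and no low-count filter those of Dlk1 and Mbp, and the joint fit ended Cnp at 10 mM. Depth limits Hes5 most, at 6 to 38 counts a well.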
